A study of Rattus norvegicus with 12 samples.

Results

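Cd14, Lbp, Olr1, Cd36 and Scarb1, 5 receptor and receptor-associated genes through which cells recognise bacterial lipopolysaccharide and take up modified lipids, were followed in mixed CNS glial cultures given 3 cytokine mixtures. They were taken as all probe sets whose platform gene symbol is one of these names, which gave 11 probe sets of the 8740 analysed, or 5 genes of the 4736 that carried a single symbol. The genes were selected on the same contrast that is described here, the treated array against the control array of its own experiment, so their differences are given as a description and carry no p.

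The cultures came from newborn rat brain and were grown in a defined medium with fetal bovine serum, and each was hybridised to 1 Affymetrix rat array, 12 arrays in all. Every treated culture received its mixture for 6 h, with each cytokine at 10 ng/ml. The Th1 mixture held rat interleukin-2 (IL-2), interferon-γ, TNF-α and G-CSF. The M/M mixture, named for monocytes and macrophages, held IL-1α, IL-1β, IL-12p40 and TNF-α, and the study's methods add IL-6. The Th2 mixture held porcine TGF-β1 with G-CSF, IL-5 and IL-10, and the methods add IL-4. Control cultures had the same medium without a mixture. The 4 groups had 3 arrays each, 1 from each of 3 experiments, and the 3 comparisons shared the same control arrays. A culture was a mixture of glial cell types, so an array cannot tell apart fewer cells of a type and less RNA per cell.

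Lipopolysaccharide is lifted from bacterial membranes by the soluble lipopolysaccharide-binding protein Lbp and handed to Cd14, which passes it to Toll-like receptor 4 and thereby to NF-κB. Olr1 (also called LOX-1), Cd36 and Scarb1 are scavenger receptors, surface proteins that bind oxidised or otherwise modified lipoproteins, fatty acids or high-density lipoprotein. In the brain Cd14 and Cd36 are mainly known from microglia, the resident macrophages.

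The regions around the start of the genes are shown because the members moved in different ways. The pathways that lead from Toll-like receptors and cytokines end at such sequences. The 300 bases around the start of the gene, most of them before it, were found for 3 of the 5 genes, Cd14, Olr1 and Cd36, in the RefSeq promoters of the rat assembly GRCr8. Capitals mark matches to 5 motifs searched on both strands: an NF-κB type motif (GGG and CC with 5 unspecified bases between them), a C/EBP type motif (TTNNGNAA), an AP-1 type motif (TGANTCA), an interferon-γ type motif (TTCNNNGAA) and an Sp1 type motif (GGGCGG).
Cd14, chr18:28611109-28611408, minus strand: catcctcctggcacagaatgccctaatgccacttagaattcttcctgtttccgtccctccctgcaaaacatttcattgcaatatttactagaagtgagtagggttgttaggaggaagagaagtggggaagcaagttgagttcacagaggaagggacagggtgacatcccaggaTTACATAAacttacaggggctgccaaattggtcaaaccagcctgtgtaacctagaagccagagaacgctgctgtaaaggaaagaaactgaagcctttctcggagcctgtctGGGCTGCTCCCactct
Olr1, chr4:164634498-164634797, minus strand: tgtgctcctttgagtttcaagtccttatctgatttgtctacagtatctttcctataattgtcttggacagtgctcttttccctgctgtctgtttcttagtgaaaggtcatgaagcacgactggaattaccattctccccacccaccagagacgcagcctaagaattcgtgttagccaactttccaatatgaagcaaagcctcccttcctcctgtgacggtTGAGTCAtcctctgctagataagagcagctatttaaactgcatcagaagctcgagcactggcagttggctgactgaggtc
Cd36, chr4:18246332-18246631, plus strand: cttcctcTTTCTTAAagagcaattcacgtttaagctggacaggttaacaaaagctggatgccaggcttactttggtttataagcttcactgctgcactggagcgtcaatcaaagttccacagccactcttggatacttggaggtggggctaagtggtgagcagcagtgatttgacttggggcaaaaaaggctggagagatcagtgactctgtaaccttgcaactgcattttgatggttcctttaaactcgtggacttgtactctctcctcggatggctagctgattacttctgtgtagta
In the Cd14 region the NF-κB type motif had 2 overlapping matches, from bases 35 and 36 after the start. They are the same stretch, matched once on each strand, and lie within the gene and not before it. The C/EBP type motif had 1 match at position -77. In the Olr1 region the AP-1 type motif had 1 match at position -30, and in the Cd36 region the C/EBP type motif had 1 match at position -243. None of the other motifs had a match in these 3 windows. Among all 33469 promoters of the same length, the NF-κB type motif was in 47.3%, the C/EBP type motif in 41.3%, the AP-1 type motif in 7.33%, the interferon-γ type motif in 8.87% and the Sp1 type motif in 33.1%. A match in such a window is a description of letters and not a site of binding.

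Before the results, the arrays were set against their labels with lists of genes known to respond to the cytokines. Over 11 measured interferon-γ response genes, the median difference of log2 signal from the control of the same experiment was 4.12 and 4.85 for the Th1 arrays of experiments 1 and 2. In experiment 3 the array labelled Th1 gave -0.66, with 2 of the 11 genes above the control, while the array labelled M/M gave 3.98 against 1.87 and 1.62 in experiments 1 and 2. Over 13 measured IL-1 and TNF response genes, the array labelled Th1 gave 2.05, 2.03 and 0.19 in experiments 1, 2 and 3 and the array labelled Th2 gave -0.01, 0.84 and 3.64. The array labelled M/M was between 2.61 and 2.97 in all 3 experiments. All 3 treated arrays of experiment 3 thus stood apart from those of the same label on at least 1 list, the array labelled M/M on the interferon-γ list although its mixture holds no interferon-γ. Whether these arrays carry the right labels was not tested. If they do not, the values of experiment 3 and the means over 3 experiments do not describe the mixture they are named for, so the differences of the 5 genes from control are given with and without experiment 3. The median signal of an array was 24.5 to 42.2 in experiment 3 and 38.39 to 60.98 in experiments 1 and 2. In experiment 2 the control array had 38.39 and the treated arrays 56.05 to 60.98, so differences there include this shift.

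Markers of the glial types the cultures are said to hold had signal, and so had fibroblast markers. Of the microglial and macrophage markers 8 of 13 were measured, and their summed signal was 2017 to 4962 in control, 3117 to 4656 in Th1, 3136 to 4705 in M/M and 2876 to 4912 in Th2 arrays. Among them Aif1 and C1qb were bright and Itgam and Csf1r were dim. Of the astrocyte markers (6 of 7 measured) Slc1a3, S100b and Aldoc were bright. Aqp4 and Gja1 were nearer the middle of the array (percentiles 57.9 and 59.5 of mean signal), and Slc1a2 was lower (39.4). Of the oligodendrocyte markers (6 of 7) Mbp was among the brightest on the array. Endothelial markers (4 of 8) summed to 36 to 234.6, T and B cell markers (6 of 8) to 79.6 to 287.6 and neutrophil markers (2 of 5) to 7.6 to 85.82. Oligodendrocyte precursor markers (3 of 4) summed to 530.4 to 1978 and neuronal markers (7 of 7) to 369.3 to 718.8. Fibroblast markers (5 of 5) summed to 714.4 to 4347, with Col1a1, Col1a2 and Col3a1 bright (percentiles 93, 89.6 and 89.3 of mean signal).

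Cd14, the co-receptor that presents lipopolysaccharide to the Toll-like receptor complex, was higher than in the control culture of the same experiment with every mixture. In the deposited signals the geometric mean over 3 experiments was 5.84-fold with M/M, 3.80-fold with Th1 and 2.27-fold with Th2 cytokines. At its brightest probe set (AF087943_s_at) the control signals were 773, 365 and 365.5 in experiments 1, 2 and 3. The Th1 signals were 2722, 2822 and 739. The M/M signals were 3433, 2735 and 2185, and the Th2 signals were 941, 648 and 1991.
All 3 M/M arrays were far above every control array, whereas the Th1 array of experiment 3 and the Th2 array of experiment 2 lay below the control array of experiment 1. The group means were 501 ± 236 in control cultures, 2094 ± 1175 in Th1, 2784 ± 626 in M/M and 1193 ± 706 in Th2 cultures (SD, n = 3 each).

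The mean difference of log2 signal at this probe set was 2.55 ± 0.38 with M/M cytokines (SD over 3 experiments), with 2.15, 2.91 and 2.58 in experiments 1, 2 and 3. With Th1 cytokines it was 1.93 ± 0.97, from 1.82, 2.95 and 1.02. With Th2 cytokines it was 1.19 ± 1.12, from 0.28, 0.83 and 2.45. The M/M difference varied least between experiments, and the Th2 difference came mainly from experiment 3. Without experiment 3 the means were 2.53 (M/M), 2.38 (Th1) and 0.56 with the Th2 mixture, in the same order of mixtures and with a smaller Th2 difference. With each array's median subtracted (median centring), the means over 3 experiments were 2.12 (M/M), 1.77 (Th1) and 0.97 (Th2). In experiments 1 and 2 the centred differences were 2.11 and 2.31 with M/M and 1.87 and 2.28 with Th1 cytokines.
The second probe set of Cd14 (AF087944mRNA_s_at) had control signals of 390, 294 and 109.5. Its Th1 signals were 1204, 2046 and 302, its M/M signals were 2062, 2038 and 765, and its Th2 signals were 543, 528 and 970. The mean differences of log2 signal were 1.96 ± 0.73 for the Th1 mixture, 2.67 ± 0.23 for the M/M mixture and 1.49 ± 1.45 for the Th2 mixture, and without experiment 3 they were 2.21, 2.598 and 0.66. Here the lowest M/M and the lowest Th2 array were above the highest control array. Over the 12 arrays, with array medians and experiment means removed, the 2 probe sets had a Pearson correlation of 0.984 and a Spearman correlation of 0.937. This is a description of measurements that share the same RNA.

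Neighbours in the order of Cd14 levels did not all differ beyond their spread. M/M minus Th1 was 0.62 ± 0.84 on the log2 scale, with 0.33, -0.05 and 1.56 in experiments 1, 2 and 3. M/M minus Th2 was 1.36 ± 1.07, above 0 in 3 of 3 experiments but with 0.13 in experiment 3, and at the second probe set it was 1.18 ± 1.32 with -0.34 in experiment 3. Th1 minus Th2 was 0.74 ± 1.90, from 1.53, 2.12 and -1.43. The order of Th1 and Th2 was therefore opposite in experiment 3 to that in experiments 1 and 2. In experiment 1 the summed microglial markers were 4962 in the control and 4705 in the M/M culture, and Cd14 was 4.44-fold higher in the latter. In experiments 2 and 3 the sums were 2727 and 2017 in control and 3136 and 4271 in M/M cultures. The part of microglial content in the Cd14 difference was not tested.

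**Figure D1:**
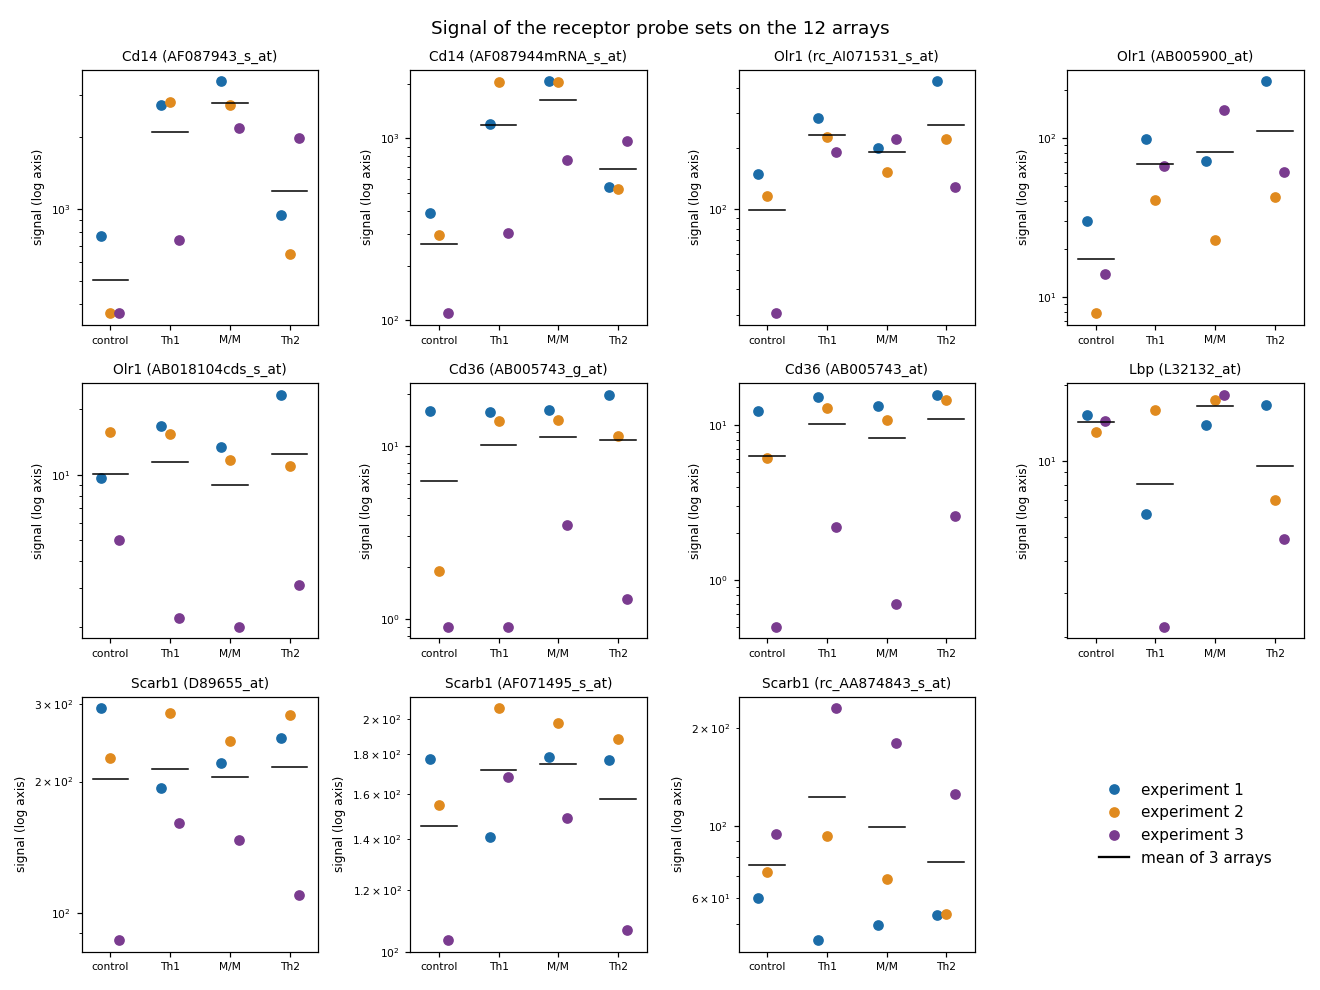
Signal of each probe set of the 5 genes on the 12 arrays. Each panel is 1 probe set, the log-scaled y axis is the deposited signal, each point is 1 array coloured by experiment, and the bar is the mean of 3 arrays. The 3 M/M arrays of Cd14 (AF087943_s_at) lie between 2185 and 3433, above the control arrays at 365 to 773, while Cd36 and Lbp stay at or below 19.79.

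Olr1, an endothelial and macrophage receptor for oxidised low-density lipoprotein, was higher in the deposited signals with all 3 mixtures at its 2 brighter probe sets. At the brightest (rc_AI071531_s_at) the control signals were 150.0, 116 and 30.5 in experiments 1, 2 and 3. The Th1 signals were 283, 229 and 191, the M/M signals were 202, 152 and 222, and the Th2 signals were 431, 222 and 129. Every Th1 and M/M array was above every control array, and the Th2 array of experiment 3 was below the control array of experiment 1.
The group means were 98.9 ± 61.6 in control cultures, 234 ± 46.3 in Th1, 192 ± 35.8 in M/M and 261 ± 155 in Th2 cultures (SD, n = 3 each). The mean difference of log2 signal was 1.51 ± 0.98 for the Th1 mixture, 1.23 ± 1.42 for the M/M mixture and 1.51 ± 0.58 for the Th2 mixture. The control signal of experiment 3, 30.5, was the lowest of the 12, and the differences of that experiment were 2.65, 2.86 and 2.08. Without experiment 3 the means were 0.95 for the Th1 mixture, 0.41 for the M/M mixture and 1.23 for the Th2 mixture, and Th2 was then the highest. After median centring, in which each array's median was subtracted, the 3 means over all experiments were 1.35, 0.80 and 1.30. The centred M/M differences were 0.39, -0.20 and 2.21 in experiments 1, 2 and 3, so the M/M mean at this probe set came mainly from experiment 3. In experiment 2 the centred differences were 0.31 with Th1 and 0.39 with Th2.

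The probe set AB005900_at, which had control signals of 30.0, 7.88 and 13.9, gave larger differences. Its Th1 signals were 98.6, 40.5 and 66.7, its M/M signals were 71.7, 22.8 and 149.7, and its Th2 signals were 227, 42.2 and 60.7. The mean differences of log2 signal were 2.11 ± 0.35 for the Th1 mixture, 2.07 ± 1.18 for the M/M mixture and 2.49 ± 0.40 for the Th2 mixture, and without experiment 3 they were 2.04, 1.39 and 2.67. With median centring they were 1.95, 1.64 and 2.28. All Th1 and all Th2 arrays were above every control array, and the M/M array of experiment 2 was below the control array of experiment 1. Adding 16 to every signal before the logarithm lowered the differences at this dim probe set to 1.34, 1.37 and 1.68.
The third Olr1 probe set (AB018104cds_s_at) had signals of 2.0 to 23.31 over all arrays, and its mean differences were -0.14 ± 0.99, -0.43 ± 0.90 and 0.02 ± 1.09 for Th1, M/M and Th2, or 0.38, 0.02 and 0.37 without experiment 3. It did not share the pattern of the others: the correlation of the 2 brighter probe sets over the 12 arrays was 0.877 (Pearson) and 0.916 (Spearman), and this one had Pearson correlations of -0.25 and -0.27 with them. For Olr1 the mixtures could not be put in order beyond their spread, with Th1 minus Th2 at 0.0012 ± 0.59 and M/M minus Th2 at -0.28 ± 0.96 at the brightest probe set. M/M minus Th2 was -1.09, -0.54 and 0.78 in experiments 1, 2 and 3, so below 0 in experiments 1 and 2.

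**Figure D2:**
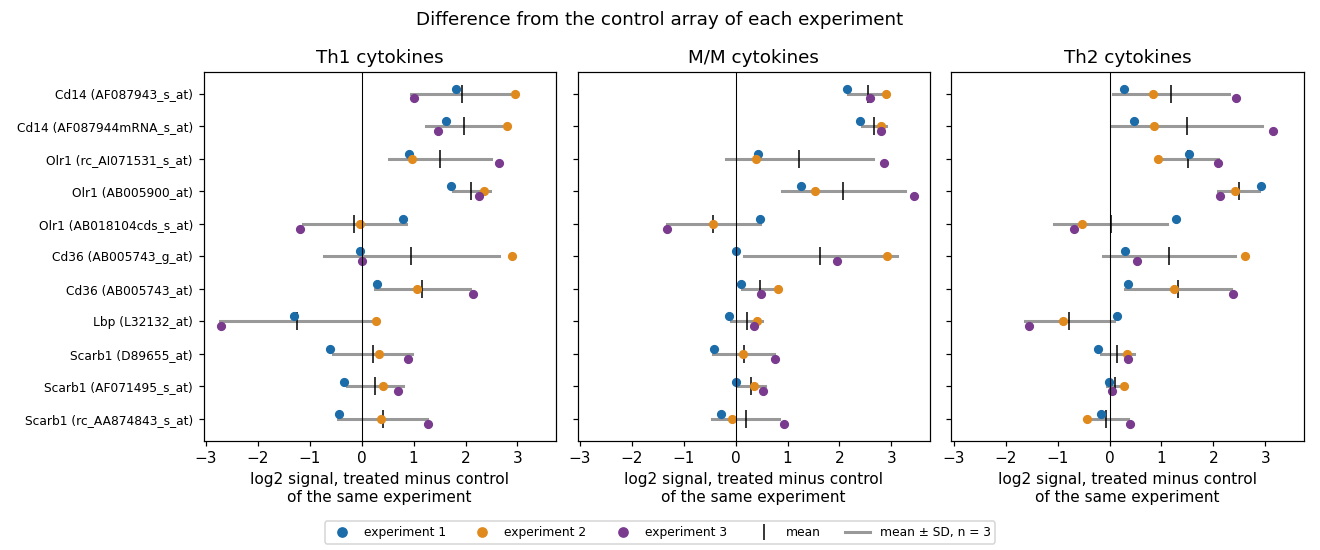
Difference of log2 signal between the treated array and the control array of the same experiment for the 11 probe sets, with one panel per mixture. Points are experiments, the vertical tick is the mean and the grey bar is the mean ± SD (n = 3); all 3 points of both Cd14 probe sets lie above 2 in the M/M panel, and in the Th2 panel the experiment 3 points of Cd14 lie at 2.45 and 3.15, apart from the others.

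Cd36, a receptor for oxidised lipoproteins and long-chain fatty acids, was near the lower end of the array. At its probe set AB005743_g_at the control signals were 16.04, 1.88 and 0.9 in experiments 1, 2 and 3. The Th1 signals were 15.6, 13.99 and 0.9, the M/M signals were 16.2, 14.2 and 3.5, and the Th2 signals were 19.8, 11.5 and 1.3. Signals followed the experiment more than the mixture, and the groups overlapped throughout.
The mean differences of log2 signal were 0.95 ± 1.68 for the Th1 mixture, 1.63 ± 1.48 for the M/M mixture and 1.15 ± 1.27 for the Th2 mixture. The control signal of experiment 2 was low, and the differences there were 2.90, 2.92 and 2.61. Without experiment 2 the means were -0.02, 0.99 and 0.42, with an M/M difference of 1.96 in experiment 3, and without experiment 3 the 3 means were 1.43, 1.46 and 1.46. At the probe set AB005743_at the control signals were 12.3, 6.13 and 0.5, and the treated signals ran from 0.7 to 15.6. Its mean differences were 1.17 ± 0.92, 0.47 ± 0.35 and 1.32 ± 1.02, and without experiment 3 they were 0.68, 0.46 and 0.80. In the deposited signals its differences were above 0 in 3 of 3 experiments with each mixture. Of all probe sets, 14%, 32% and 25% were higher in 3 of 3 with Th1, M/M and Th2. After median centring the M/M differences at AB005743_at were 0.07, 0.22 and -0.16 in experiments 1, 2 and 3, with a mean of 0.04. The centred Th1 and Th2 differences there stayed above 0 in each experiment. Adding 16 to every signal brought all Cd36 differences to between 0.11 and 0.32, and the 2 probe sets did not move together over the arrays (Pearson -0.052, Spearman 0.077).

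Lbp, the soluble protein that transfers lipopolysaccharide to Cd14, was measured by 1 dim probe set (L32132_at). Its control signals were 15.2, 13.1 and 14.4 in experiments 1, 2 and 3, a mean of 14.2 ± 1.07 (SD, n = 3). The Th1 signals were 6.17, 15.9 and 2.2, the M/M signals were 13.9, 17.4 and 18.3, and the Th2 signals were 16.7, 6.98 and 4.9. The Th1 and Th2 arrays reached lower than any control array, and the M/M arrays stayed beside the control arrays.
The mean difference of log2 signal was -1.24 ± 1.497 for the Th1 mixture, 0.21 ± 0.30 for the M/M mixture and -0.77 ± 0.86 for the Th2 mixture. Without experiment 3 the values were -0.51, 0.14 and -0.38. The M/M difference turned to -0.22 under median centring of the arrays, which lowered every M/M difference by 0.43 on the log2 scale. Centring lowered every Th1 difference by 0.16 and every Th2 difference by 0.21. M/M minus Th1 was 1.45 ± 1.48 and above 0 in 3 of 3 experiments.

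Scarb1, the receptor for high-density lipoprotein that moves cholesterol esters into and out of cells, stayed closest to control. At its brightest probe set (D89655_at) the control signals were 294, 226 and 86.8 in experiments 1, 2 and 3. The Th1 signals were 193, 287 and 161, the M/M signals were 221, 248 and 147, and the Th2 signals were 252, 284 and 110.3. All treated arrays lay within the range of the control arrays, with values between 86.8 and 294.
The mean differences of log2 signal were 0.21 ± 0.75, 0.16 ± 0.59 and 0.15 ± 0.32 for Th1, M/M and Th2. Without experiment 3 they were -0.13, -0.14 and 0.05, and after median centring of the arrays they were 0.05, -0.27 and -0.06. The probe set AF071495_s_at had signals of 103.5 to 206 and mean differences of 0.26, 0.29 and 0.11, or 0.04, 0.18 and 0.14 without experiment 3. The probe set rc_AA874843_s_at had signals of 44.5 to 230.1 and mean differences of 0.41, 0.19 and -0.07, or -0.03, -0.17 and -0.30 without experiment 3. Under median centring the M/M difference was below 0 at all 3 probe sets. Their pairwise Pearson correlations over the 12 arrays were 0.860 to 0.899, as measurements of the same RNA.

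Counted over all 11 probe sets, the members were read against the background of each comparison. A signal was higher than control in 3 of 3 experiments at 5 probe sets with Th1 (14% of all probe sets), 7 with M/M (32%) and 6 with Th2 cytokines (25%). The lowest treated array was above the highest control array at 2 probe sets with Th1 (1.54% of all), 3 with M/M (7.48%) and 2 with Th2 (2.77%). The limma fit across all probe sets used a Benjamini-Hochberg adjusted p of 0.05 and the experiment as a block. Its calls are not given for the members, which the same contrast selected. In that fit 0 of 8740 probe sets passed with Th1 cytokines (0%), where 486 were below an unadjusted p of 0.05. With M/M cytokines 23 rose and 0 fell (0.263%, 1394 unadjusted), and with Th2 cytokines 1 rose (0.0114%, 590 unadjusted). The member counts use the contrast by which the genes were selected, and nothing is read from them.

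The Cd14 differences were set beside the treatment lists for each treated array, where both values share the control array of the experiment. In each pair the median of the IL-1 and TNF list is first and Cd14 second. For Th1 they were 2.05 and 1.82 in experiment 1, 2.03 and 2.95 in experiment 2, and 0.19 and 1.02 in experiment 3. For M/M they were 2.61 and 2.15, 2.80 and 2.91, and 2.97 and 2.58. For Th2 they were -0.01 and 0.28, 0.84 and 0.83, and 3.64 and 2.45. The 3 arrays with the lowest list medians, Th1 of experiment 3 and Th2 of experiments 1 and 2, were the 3 lowest for Cd14, and among the other 6 the orders differed. The same 3 arrays were also lowest on the interferon-γ list, at -0.66, -0.39 and 0.14. On the other 6 its medians were 4.12 and 4.85 for Th1 of experiments 1 and 2, and 1.87, 1.62 and 3.98 for M/M of experiments 1, 2 and 3. For Th2 of experiment 3 it was 1.17. Which of the lists Cd14 follows was not tested. The Olr1 differences in experiments 1, 2 and 3 were 0.92, 0.98 and 2.65 for Th1 and 0.43, 0.39 and 2.86 for M/M. For Th2 they were 1.52, 0.93 and 2.08. In the Th2 array of experiment 1 the IL-1 and TNF median was -0.01, but 6 of the 13 genes were above control. Among these were Il6 at 4.25 and Ptgs2 at 2.25. Whether Olr1 follows either list was not tested.

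**Figure D3:**
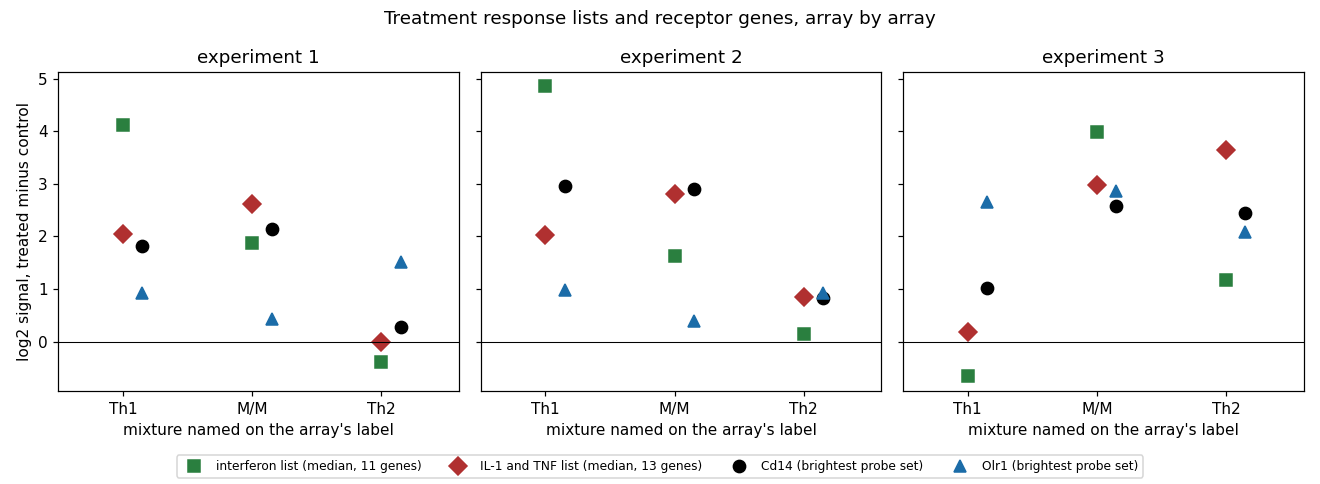
Median difference of log2 signal over the interferon-γ list (11 genes) and the IL-1 and TNF list (13 genes), with Cd14 and Olr1 at their brightest probe sets, for each treated array against the control of its experiment. The x axis is the mixture on the array's label; in experiment 3 the interferon-γ list lies at -0.66 for the array labelled Th1 and the IL-1 and TNF list at 3.64 for the array labelled Th2, apart from experiments 1 and 2, and Cd14 lies at 1.02 and 2.45 on those arrays.

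The genes with the profile most like Cd14 were named by the Pearson correlation of log2 signals over the 12 arrays, with array medians and experiment means removed, among 2714 genes with a mean signal above the median of the array. For Cd14 they were Cd82, a tetraspanin (0.982), Nfkb1, a subunit of NF-κB (0.981), Il1b, the cytokine interleukin-1β (0.979), Cebpb, a transcription factor (0.972), and Gch1, the enzyme that starts tetrahydrobiopterin synthesis (0.964). Over the 8 arrays of experiments 1 and 2 the values were 0.980, 0.995, 0.991, 0.961 and 0.971, as high without experiment 3. For Olr1 they were Vegfa, the vascular growth factor (0.933), Ezr, which links membrane and cytoskeleton (0.851), Phax, an RNA export adaptor (0.850), Uox, urate oxidase (0.841), and Slc32a1, the vesicular GABA transporter (0.839). Over experiments 1 and 2 these were 0.880, 0.765, 0.295, 0.625 and 0.198, with Vegfa the highest of them. For Scarb1 they were C1qc, a complement component made by microglia (0.952), Echs1, a mitochondrial enzyme of fatty acid oxidation (0.942), Ddrgk1 (0.939), Tubg1, γ-tubulin (0.937), and Fzd2, a Wnt receptor (0.934). Over experiments 1 and 2 these were 0.897, 0.829, 0.810, 0.935 and 0.942, with Fzd2 the highest. Like Scarb1, these genes stayed near control, with mean log2 differences of -0.08 to 0.32 over the 3 mixtures. Cd36 and Lbp were below that median, so no genes were named for them. These correlations describe arrays that share a source and carry no p.

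Beside the 5 genes, 64 of 132 listed genes of the same pathways were measured. They were 14 of lipopolysaccharide recognition and the Toll-like receptor complex, 12 of Toll-like receptor signalling, 11 of other scavenger and modified lipoprotein receptors and 27 of lipid handling. The lists were drawn broadly and also hold genes with other main ligands, such as Tlr7, Cd44 and Fcgr2b. In the fit over all 12 arrays with limma 0 of the 64 passed in each comparison, with 6, 16 and 8 below an unadjusted p of 0.05 for Th1, M/M and Th2. They were higher in 3 of 3 experiments for 12, 24 and 23 genes (18.8%, 37.5% and 35.9% of the list, against 14%, 32% and 25% of all probe sets). The median difference of log2 signal over the list was 0.29, 0.43 and 0.30, where the median over all 8740 probe sets was 0.14, 0.33 and 0.19. Without experiment 3 the list had 0.32, 0.16 and 0.25 and all probe sets had 0.21, 0.18 and 0.19.
Without experiment 3, 3 genes rose with Th1 and 2 with M/M cytokines in limma, and 0 with Th2, where 9 were below an unadjusted p of 0.05. Nfkb1 was higher by 2.01 (adjusted p = 0.0198) with Th1 and 2.15 (0.0221) with M/M cytokines. Nfkbia, the inhibitor of NF-κB and itself an NF-κB target, was higher by 1.96 (0.00677) and 1.95 (0.0078). Irf7, an interferon-regulated transcription factor of Toll-like receptor signalling, was higher by 5.06 (0.0157) with Th1 cytokines. Nfkbia and Irf7 also stand on the lists by which the arrays were set against their labels. Experiment 3 was thus set apart partly through the values of these 2 genes. Their adjusted p without it is therefore no independent test, and nothing is concluded from it. In the same setting 58 (Th1), 34 (M/M) and 0 (Th2) of all probe sets passed, or 0.664%, 0.389% and 0%.

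With M/M cytokines the 3 largest differences of the list were all in Toll-like receptor signalling, at Irf7, Nfkb1 and Nfkbia. The genes named are the 2 largest of each role with the same sign in 3 of 3 experiments, with Nfkbia added, and none passed in limma over 12 arrays. In the list of lipopolysaccharide recognition and the Toll-like receptor complex, Tlr7, a receptor for single-stranded RNA, had a log2 difference of 1.60 (SE 0.59, adjusted p = 0.244). Crp, measured by a probe set shared with a gene family, had 1.14 (SE 0.30, adjusted p = 0.134). In Toll-like receptor signalling, Nfkb1 had 2.27 (SE 0.47, adjusted p = 0.0676), Irf7 had 2.91 (SE 1.33, adjusted p = 0.307) and Nfkbia had 2.26 (SE 0.63, adjusted p = 0.152). The 2 genes named from the list of other scavenger and modified lipoprotein receptors have other main ligands. Cd44, the hyaluronan receptor, had 1.92 (SE 0.57, adjusted p = 0.171) and Fcgr2b, the inhibitory IgG receptor, had 1.66 (SE 0.31, adjusted p = 0.0512). In lipid handling, Acsl1, which activates fatty acids, had 1.57 (SE 0.40, adjusted p = 0.125), and Lpl, lipoprotein lipase, had -1.002 (SE 0.38, adjusted p = 0.253).
With Th1 cytokines the adjusted p in limma was 0.857 to 0.869 for all genes named by the same rule but Lpl. Nfkb1 had a log2 difference of 1.46 and the Src-family kinase Lyn had 1.06. The pentraxins Apcs and Crp, soluble recognition proteins, had -0.62 and 0.38. Fcgr2b had 0.88, the lysosomal membrane protein Scarb2 had 0.47, and Ppara, a nuclear receptor for fatty acids, had 0.54. The exception was Lpl at -1.63 (SE 0.38, adjusted p = 0.599). The rule left out larger Th1 differences whose sign turned on the array labelled Th1 in experiment 3. Among them Irf7 had 2.74, from 4.79, 5.33 and -1.90 in experiments 1, 2 and 3. Tlr7 had 1.55, from 1.76, 3.20 and -0.33, and Nfkbia had 1.29, from 1.97, 1.95 and -0.06. None of these passed over 12 arrays (adjusted p = 0.857 in limma for each). Without experiment 3 Tlr7 had 2.48 (adjusted p = 0.123).
With Th2 cytokines Fcgr2b had 1.56 (SE 0.31, adjusted p = 0.251), and the adjusted p in limma was 0.715 to 0.743 for the others. Tlr4, the signalling receptor that Cd14 serves, had 0.81, Crp had 0.76, Nfkb1 had 1.06 and Lyn had 0.92. Acsl1 had 1.05, the apolipoprotein Apoa4 had -1.04, and Havcr1, a receptor for phosphatidylserine, had 1.30. Lpl was below control in 3 of 3 experiments with both Th1 and M/M cytokines, and Fcgr2b was above control in 3 of 3 with every mixture.

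**Figure D4:**
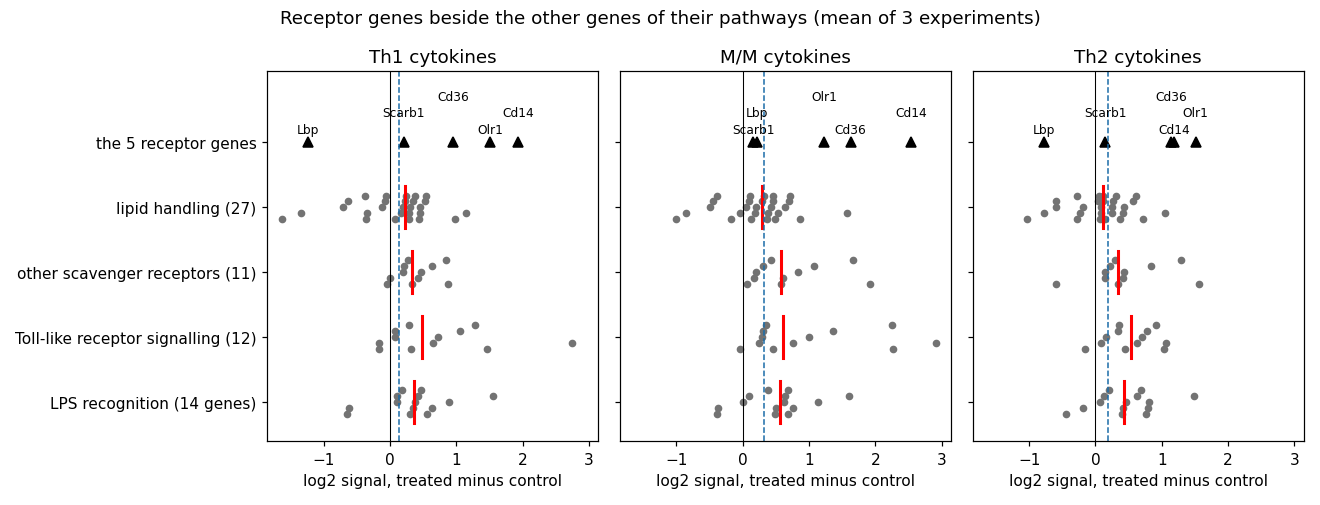
Mean difference of log2 signal over 3 experiments for the 5 receptor genes (triangles, brightest probe set) and for the 64 measured genes of the same pathways (grey points) by role, in one panel per mixture. The red bar is the median of each role and the dashed blue line is the median of all 8740 probe sets (0.14, 0.33 and 0.19); Cd14 at 2.55 in the M/M panel is beyond all but one grey point, Irf7 at 2.91.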

How the data were processed

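Mixed glial cultures from newborn rat brain were profiled on Affymetrix rat expression arrays (RG-U34 set, array A), 12 arrays in 3 experiments of 1 control and 3 treated cultures. The deposited values are linear signal intensities made by the authors with dChip; the settings and any normalization were not given in the sources used here, and values were not rescaled. Of 8799 probe sets, 59 control probe sets were left out. Intensities below 0.1 were set to 0.1 and put on the log2 scale. The arrays of experiment 3 had 167 to 403 probe sets below 1. Those of experiments 1 and 2 had 0 to 3 below 1 and 200 to 249 at exactly 1. The low end of the signals thus differed between experiments, and some Cd36 signals of experiment 3 lie there. The cause was not tested. The platform annotation gave 7006 probe sets 1 symbol, 308 several and 1426 none.

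Differences were taken against the control array of the same experiment. The fit used limma 3.58.1 in R 4.3.3 with the experiment as a block (residual df 6) and a variance trend, two-sided, with Benjamini-Hochberg adjustment over 8740 probe sets at 0.05. It was tested on simulated data first. The experiment codes come from the sample titles, and arrays of the same experiment deviated together: 18 same-experiment correlations of deviations from the group means were 0.44 to 0.71, and 36 between different experiments and groups were -0.62 to 0.36. Where nothing says that cultures came from separate animals, p-values measure only the spread between these samples. For genes with several probe sets the brightest over 12 arrays stands for the gene.

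The members, the gene lists and the motifs were chosen with earlier results of these data known. All probe sets of the members are named; of the pathway list, each gene that passed and, per role and comparison, the 2 with the largest difference of the same sign in 3 of 3 experiments. Nfkbia was added after its values were seen, since it passed without experiment 3. For Th1, Irf7, Tlr7 and Nfkbia were added in the same way, since the rule left them out through experiment 3. Alternatives were no block, median centring, quantile normalization, an offset of 16, the brighter 50% of probe sets, no variance trend, the study's screening by 2-fold and p of 0.2, and leaving out arrays.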

Additional observations from a re-analysis of the deposited data

How the results depend on the processing

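The number of arrays limits the precision. Only differences well above the spread of 3 experiments can be called, and the dim Cd36 and Lbp probe sets have little signal over background. The experiment served as the replicate block; the fit with no replicate block called 0 probe sets in each comparison (82, 297 and 92 at an unadjusted p of 0.05 in the order Th1, M/M, Th2). For M/M the 23 calls in limma became 0 with median centring (1167 unadjusted), 0 with quantile normalization (1200), 0 with no variance trend (1130), 14 with the offset of 16 (1450) and 57 with dim probe sets left out, where 2 pathway genes passed, Nfkb1 (adjusted p = 0.0397) and Fcgr2b (0.0315). For Th2 the 1 call became 0 with centring (682), quantile normalization (712) and no trend (552). Screening by fold and p gave 242 (Th1), 596 (M/M) and 299 (Th2) probe sets. The M/M difference of Cd14 was 2.12 with centring and 2.16 with quantile normalization, and that of Lbp was -0.22 and -0.21. Leaving out arrays moved the calls for Th1 between 0 and 82 (58 without replicate 3, 82 without Th1 replicate 3, 7 and 1 without Th2 replicate 3 and 2), for M/M between 0 and 183 (183, 77 and 13 without Th1 replicate 3, 2 and 1, 72 without Th2 replicate 3, 70 without replicate 1, 66 without control replicate 1, and 0 without replicate 2, any M/M array, or control replicate 2 or 3), and for Th2 between 0 and 3 (3 without Th2 replicate 2, 2 without replicate 2, and 0 without replicate 1 or 3, any control array, Th2 replicate 1 or 3, or M/M replicate 3). The pathway list gave 0 to 5 (Th1), 0 to 6 (M/M) and 0 (Th2) genes, the most without Th1 replicate 3: Tlr7, Nfkb1, Nfkbia, Irf7 and Cd44 for Th1, and Nfkb1, Nfkbia, Irf7, Cd44, Fcgr2b and Acsl1 for M/M. The Cd14 differences ranged over 1.42 to 2.599 (Th1), 2.37 to 2.78 (M/M) and 0.41 to 1.64 (Th2), the Olr1 differences over 0.95 to 1.84, 0.41 to 1.65 and 0.96 to 1.84, and the Cd36 differences over -0.02 to 1.53, 0.85 to 2.44 and 0.37 to 1.72. Lbp with M/M ranged from -0.23 (without M/M replicate 3) to 0.56 (without control replicate 3). With a change over the SD between experiments, or over 1.5 times for a count, taken as a move, 18 values moved under other processing and 37 with arrays left out. The sign turned in 13 values, 8 of them at Scarb1, 4 at Lbp with M/M and 1 at Cd36 (Th1, -0.02 without replicate 2), and in 0 at Cd14 or Olr1. The cause was not tested.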

Other observations

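A further 5 probe sets were annotated to both Cd36 and Cd36l1 and were left out of the 5 genes for that reason. Their signals ran from 1.1 to 25.62 over the 12 arrays. Their mean differences of log2 signal were -0.82 to 0.16 with Th1, -0.18 to 0.68 with M/M and -0.12 to 0.92 with Th2 cytokines.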
